A study of Rattus norvegicus with 8 samples.

Results

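The Egr, Nr4a and Arc genes are immediate early genes, whose transcription starts within minutes of neuronal activity without the need for new protein. Here they were the 8 genes Egr1, Egr2, Egr3, Egr4, Nr4a1, Nr4a2, Nr4a3 and Arc, taken by symbol, and they held 10 of the 16266 transcript rows, or 8 of the 13272 gene symbols, in the table compared. Egr3 and Arc have 2 transcript rows each, and the other members have 1. RNAseq had been carried out on whole hippocampi of adrenalectomized (ADX) rats, whose adrenal glands, the source of corticosterone, had been removed in both groups. The vehicle group was 4 rats infused with 0.45% saline, and the CORT group 4 rats infused with corticosterone-2-hydroxypropyl-β-cyclodextrin at 0.75 mg/mL, a corticosterone held in solution by a sugar ring. Each infusion lasted 30 min from zeitgeber time (ZT) 2, counted in hours from lights on, and hippocampi were taken 2 h after its start. Rats of both groups were 3 to 4 months old by the labels, which give the strain as Sprague-Dawley, whereas the study's methods name younger male Lister hooded rats, and the titles call the vehicle libraries untreated. During recovery from surgery all rats drank corticosterone in saline, which was withdrawn before the infusion. By the study's methods the CORT infusate was also made up in 0.45% saline, and no cyclodextrin is named for the vehicle. The hormone and the cyclodextrin that carried it therefore cannot be told apart here. The comparison asks which hippocampal transcripts differ after a short exposure to the hormone with its carrier, in rats that make no corticosterone of their own.

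Egr1 to Egr4 are zinc finger transcription factors, among which Egr1, also known as zif268, is a standard marker of recently active hippocampal neurons. Nr4a1, Nr4a2 and Nr4a3, also known as Nur77, Nurr1 and Nor1, are orphan nuclear receptors that bind DNA without a known hormone and take part in the consolidation of memory. Arc is not a transcription factor. It is a cytoskeletal protein made near synapses, where it promotes the removal of AMPA-type glutamate receptors from the membrane. Many immediate early genes are switched on through serum response factor at CArG boxes and through CREB at cAMP response elements (CREs).

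The sequence just before the start site was read from RefSeq windows of the GRCr8 assembly for Egr1, Egr2, Egr4, Nr4a1 and Nr4a2. The windows of Egr3, Nr4a3 and Arc were not analysed here. Each window ran from 250 bases before the start to 50 bases after it, and was searched on both strands for the CArG box, the full CRE (TGACGTCA), its core (TGACG), the Egr site (GCGGGGGCG or GCGTGGGCG), the NBRE bound by Nr4a proteins (AAAGGTCA), a glucocorticoid receptor motif (AGAACA) and the TATA box (TATAAA). The full CRE contains the core, so a match of the first would also count as one of the second. The 250 bases before the start are shown for the members with a CArG box or with more than 1 CRE core, 5′ to 3′ in the direction of the gene, with CArG boxes and CRE cores in capitals. The cores shown lie on the opposite strand and therefore read CGTCA. The bases shown are chr18:26736828-26737077 on the plus strand, chr20:21054442-21054691 on the minus strand, chr4:119607818-119608067 on the minus strand and chr7:134259888-134260137 on the plus strand.
Egr1: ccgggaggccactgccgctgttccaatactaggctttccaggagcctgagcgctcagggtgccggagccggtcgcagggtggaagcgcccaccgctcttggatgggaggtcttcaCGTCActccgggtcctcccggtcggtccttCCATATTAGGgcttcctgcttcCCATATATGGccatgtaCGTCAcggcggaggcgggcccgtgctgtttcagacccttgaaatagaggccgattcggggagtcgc
Egr2: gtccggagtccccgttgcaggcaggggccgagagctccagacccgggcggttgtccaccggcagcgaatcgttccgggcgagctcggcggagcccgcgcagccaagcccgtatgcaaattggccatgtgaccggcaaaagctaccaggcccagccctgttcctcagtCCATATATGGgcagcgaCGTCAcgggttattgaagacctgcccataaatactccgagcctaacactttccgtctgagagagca
Egr4: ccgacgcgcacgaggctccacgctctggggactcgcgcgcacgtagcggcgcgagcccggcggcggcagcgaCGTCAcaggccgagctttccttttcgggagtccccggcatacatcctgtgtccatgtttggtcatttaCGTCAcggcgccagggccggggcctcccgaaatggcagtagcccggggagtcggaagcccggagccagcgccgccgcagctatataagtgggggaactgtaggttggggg
Nr4a1: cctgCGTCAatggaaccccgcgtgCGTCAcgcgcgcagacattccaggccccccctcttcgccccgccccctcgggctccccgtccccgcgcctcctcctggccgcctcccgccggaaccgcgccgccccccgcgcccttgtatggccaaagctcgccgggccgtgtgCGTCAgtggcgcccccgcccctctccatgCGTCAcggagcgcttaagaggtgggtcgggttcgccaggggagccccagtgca

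Egr1 and Egr2 share a CArG box of the same letters, CCATATATGG, from position -83 to -74 relative to the start. In both, a CRE core on the opposite strand follows from position -66 to -62. Egr1 has a further CArG box, CCATATTAGG, from position -105 to -96 and a further CRE core from -135 to -131. Egr4 has 2 CRE cores and no CArG box in this window. Nr4a1 has 4 CRE cores, and between the last pair of them an Egr site (GCGGGGGCG) on the opposite strand, from position -73 to -65. Nr4a2 has 1 CRE core, from position -8 to -4, at a start that lies 11039 bases inside the annotated gene, and the starts used for Nr4a1 and Egr2 likewise lie 12985 and 760 bases inside theirs. Those of Egr1 and Egr4 are at the edge of the annotated gene.

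A CArG box was found in 2 of the 5 members' windows and in 1.64% of all 33469 windows of the same length. The CRE core was found in 5 of 5 members' windows and in 21.2% of all windows, and both motifs stood together in 0.272% of all windows. The Egr site was found in 1 member and in 3.20% of all windows. No member's window held the full CRE, the NBRE, the glucocorticoid receptor motif or the TATA box in these letters, against 1.83%, 1.43%, 20.7% and 14.2% of all windows. The GC content was 64.7% for Egr1, 59.0% for Egr2, 68.0% for Egr4, 72.3% for Nr4a1 and 48.7% for Nr4a2, against a median of 51.7% over all windows. These matches describe the letters and not binding, which was not measured in these samples.

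**Figure D1:**
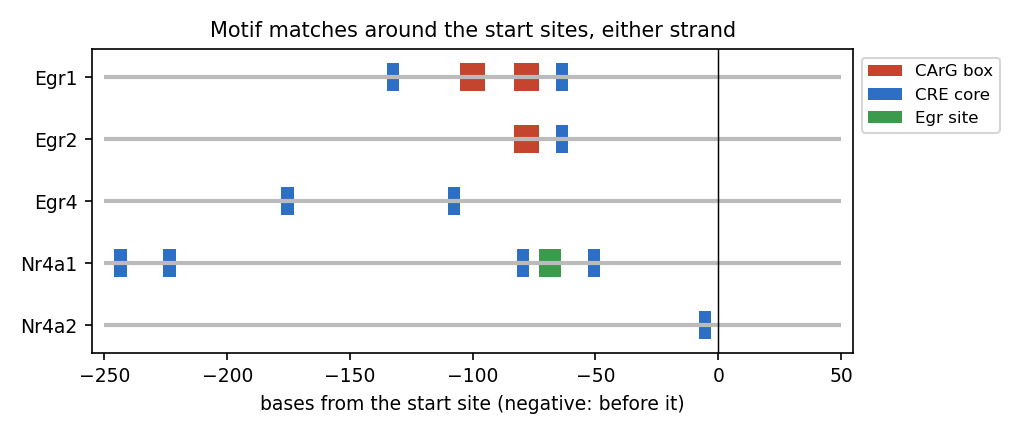
Matches of the CArG box, the CRE core and the Egr site on either strand, plotted by distance in bases from the start site, with 1 line per gene. Egr1 and Egr2 have a CArG box at the same distance from the start, from position -83 to -74, and Nr4a1 has 4 CRE cores.

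The authors' table gives 1 FPKM value per group, where FPKM sets a transcript's reads against its length and the depth of the libraries. No value per rat was used, and the authors' own test results were left aside, so the values here are described without a spread between rats, an error or a test. The table used holds no read counts. Log2 ratios compare CORT with vehicle and are above 0 where CORT was higher, and a transcript is called raised or lowered past the threshold when the groups differ by at least 1.5-fold. Over all rows the median FPKM was 9.22 with vehicle and 9.38 with CORT, and the median log2 ratio was 0.02. The middle 95% of rows lay between log2 ratios of -0.87 and 0.84. No row has less than 0.800 FPKM in its higher group, so a transcript below that level in both groups is not in the table.

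All 8 genes had a higher FPKM with CORT than with vehicle, in 10 of 10 rows, and 55% of all rows were higher with CORT. Of the members' rows 5 were at least 1.5 times as high with CORT, namely those of Egr1, Egr2, Nr4a1 and both rows of Arc, against 4.21% of all rows. None was lowered by as much, against 4.91% of all rows. With a threshold of 25% above vehicle, 8 of 10 rows passed, against 9.54% of all rows, and those short of it were the second row of Egr3 and the row of Nr4a3. Counted by gene, with each symbol represented by its row with the highest mean FPKM, 4 of 8 genes were at least 1.5 times as high, against 1.92% of symbols. Both rows of Arc, and both of Egr3, lie at one locus whose reads the authors' software divided between them, so the rows of one gene are not separate evidence. The median log2 ratio of the members was 0.60. These counts and this median include Egr2, which was under 0.800 FPKM with vehicle. Its row is in the table only through the CORT group, so it had to be higher there.

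**Figure D2:**
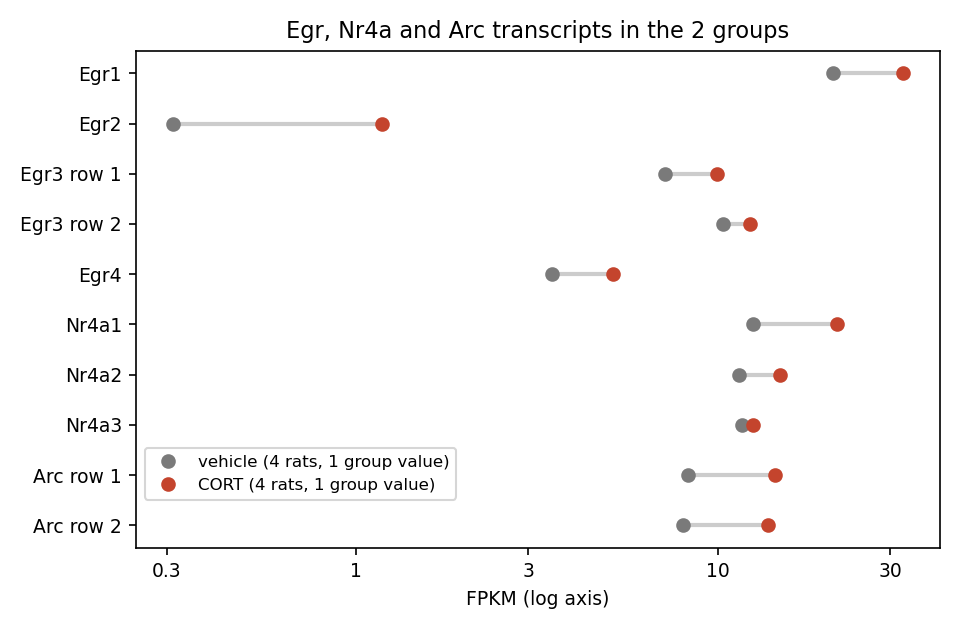
FPKM on a log axis for the 10 transcript rows, 1 grey point for the vehicle group and 1 red point for the CORT group, without error bars because the table holds 1 value per group. Each red point lies to the right of its grey point, widely for Egr2 at 0.312 and 1.18 FPKM and barely for Nr4a3 at 11.7 and 12.5 FPKM.

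Egr1 was the most abundant member in both groups. It lies on chromosome 18 of rn6 between 27657628 and 27661429, and had 20.8 FPKM with vehicle against 32.6 FPKM with CORT. The fold was 1.57 and the log2 ratio 0.65, just past the threshold. Among the 4737 rows whose mean FPKM was within 2-fold of that of Egr1, 1.08% had a higher log2 ratio, so few transcripts of its abundance were further above vehicle.

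Egr2, also known as Krox20 and best known for its part in myelination by Schwann cells and in hindbrain patterning, was the least abundant member. It lies on chromosome 20 between 22454463 and 22459025. Its FPKM was 0.312 with vehicle and 1.18 with CORT, a log2 ratio of 1.92 and a fold of 3.78, the highest of the members. Its vehicle value was lower than that of all but 0.344% of rows. Since it was under 0.800 FPKM with vehicle, the row is in the table only through the CORT group, and a row of that kind had to differ between the groups. Wide ratios were common at this level, and 3.18% of the 1825 rows within 2-fold of its mean FPKM had a higher one. With 1 FPKM added to both groups the log2 ratio of Egr2 was 0.73, close to the 0.74 of the first row of Arc on that scale. Without Egr2, among rows with 1 FPKM or more in both groups, 4 of 9 member rows were at least 1.5 times as high, against 2.51% of such rows, and their median log2 ratio was 0.56.

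Egr3, an activity-induced factor needed for the formation of muscle spindles and for hippocampal plasticity, lies on chromosome 15 between 51756736 and 51760715. The first of its rows, ENSRNOT00000024067.5, had 7.16 FPKM with vehicle against 9.999 FPKM with CORT, a log2 ratio of 0.48. The second, ENSRNOT00000077072.1, had 10.4 and 12.3 FPKM, a log2 ratio of 0.25. Neither row reached 1.5-fold, and the more abundant row had the smaller ratio. Of the 5743 rows within 2-fold of the mean FPKM of the first row, 2.94% had a higher ratio. For the second row it was 10.2% of 5860 rows. With both rows summed, Egr3 had 17.5 FPKM with vehicle against 22.3 FPKM with CORT, a log2 ratio of 0.35.

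Egr4, also known as NGFI-C, lies on chromosome 4 between 117293620 and 117296082. It had 3.49 FPKM with vehicle against 5.13 FPKM with CORT. The fold of 1.47 and the log2 ratio of 0.56 fell just short of the threshold. Of the 4993 rows within 2-fold of its mean FPKM, 3.99% had a higher ratio.

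The summed FPKM of the 4 Egr genes was 42.1 with vehicle and 61.2 with CORT, a log2 ratio of 0.54. Egr1 made up 49.4% of that sum with vehicle and 53.3% with CORT, while the share of Egr3 went from 41.6% to 36.4%. Egr2 stayed under 2% of the sum, at 0.741% and 1.93%, so the widest ratio of the family belonged to its scarcest transcript.

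The Nr4a genes stood close together with vehicle and apart with CORT. Nr4a1, on chromosome 7 between 142905758 and 142920216, had 12.5 FPKM with vehicle against 21.4 FPKM with CORT, a fold of 1.71 and a log2 ratio of 0.77. Only 0.811% of the 5549 rows within 2-fold of its mean FPKM had a higher ratio. Nr4a2, which is needed for the development of midbrain dopamine neurons and is also induced in the hippocampus during learning, lies on chromosome 3 between 43111240 and 43119159. It had 11.4 FPKM with vehicle against 14.9 FPKM with CORT, a log2 ratio of 0.38. Of the 5752 rows within 2-fold of its mean FPKM, 3.56% had a higher ratio. Nr4a3, on chromosome 5 between 63781801 and 63821637, had 11.7 FPKM with vehicle against 12.5 FPKM with CORT. Its log2 ratio of 0.10 was the smallest of the members, and 32.1% of all rows had a higher one, so Nr4a3 lay among the bulk of the transcripts. Among the 5848 rows within 2-fold of the mean FPKM of Nr4a3, that share was 31.2%. Of the family's summed FPKM, Nr4a1 made up 35.1% with vehicle and 43.8% with CORT, and Nr4a3 went from 32.8% to 25.7%.

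Arc, on chromosome 7 between 115907097 and 115910541, had nearly equal values in both of its rows. The row ENSRNOT00000067442.1 had 8.27 FPKM with vehicle against 14.4 FPKM with CORT, a log2 ratio of 0.80. The row ENSRNOT00000076998.2 had 8.01 FPKM with vehicle against 13.8 FPKM with CORT, a log2 ratio of 0.78. With the rows summed, Arc went from 16.3 to 28.2 FPKM, a fold of 1.73. Among the 5857 rows within 2-fold of the mean FPKM of the first row, 0.802% had a higher ratio, about the same share as for Nr4a1.

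With rows summed, the order of levels with vehicle was Egr1, Egr3, Arc, Nr4a1, Nr4a3, Nr4a2, Egr4 and Egr2. With CORT, Arc stood above Egr3 and Nr4a2 above Nr4a3, and the other places were as with vehicle. The neighbours Nr4a3 and Nr4a2 differed by less than 1 FPKM with vehicle, and no spread is at hand to say whether any neighbours in the order differ. In absolute terms the gain was largest for Arc, at 11.9 FPKM, and Egr1, at 11.8 FPKM, followed by Nr4a1 at 8.89 FPKM. It was 0.870 FPKM for Egr2 and 0.844 FPKM for Nr4a3, so the member with the widest ratio and the one with the narrowest gained about the same amount.

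**Figure D3:**
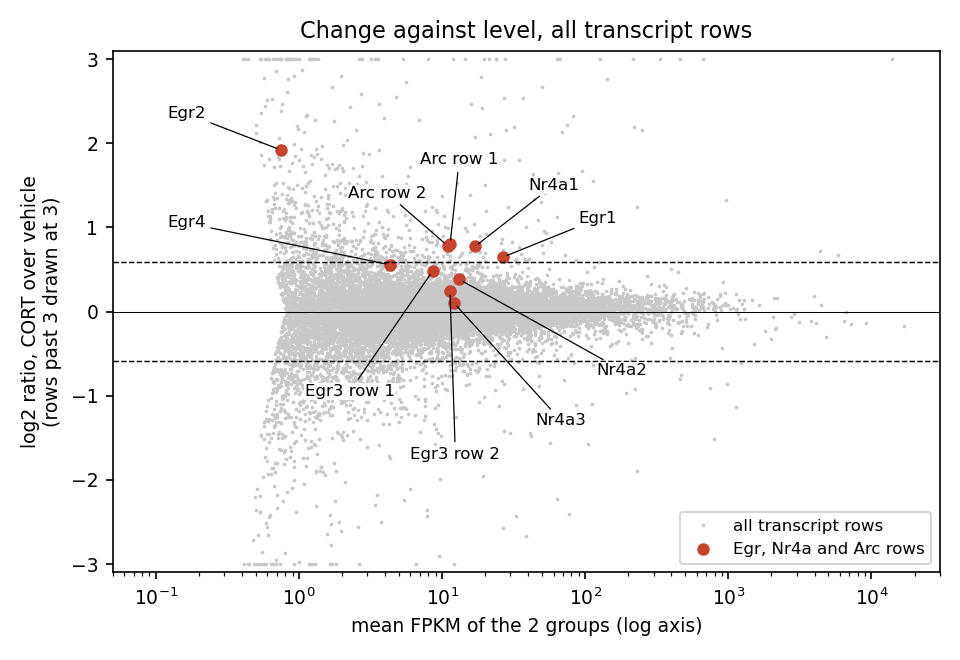
Log2 ratio of CORT over vehicle against the mean FPKM of the groups on a log axis, with all 16266 transcript rows in grey, the 10 member rows in red and dashed lines at 1.5-fold. Ratios spread widely at low FPKM, where Egr2 lies, and Arc, Nr4a1 and Egr1 lie towards the upper edge of the grey points at their level.

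By the distance over the log2 FPKM of both groups, the genes most like Arc were Lfng, at 8.27 and 13.5 FPKM, and Chrm4, at 8.81 and 13.9 FPKM, with distances of 0.10 each. Those most like Nr4a1 were Zfp189, with 12.7 and 23.8 FPKM and a distance of 0.16, and Junb, with a distance of 0.17. Those most like Egr1 were AC135026.1, with 21.7 and 32.9 FPKM and a distance of 0.06, and Hpcal1, with 21.7 and 29.3 FPKM and a distance of 0.17. The likeness rests on 2 group values and says no more than that the levels were similar.

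AP-1 factors are the Fos and Jun proteins, the other classical family of immediate early transcription factors. Of 9 listed AP-1 factors with a row, 2 were at least 1.5 times as high with CORT and 1 was lowered by as much, beside 1.92% and 3.99% of all gene symbols, and their median log2 ratio was 0.18. Fos had 2.87 FPKM with vehicle against 5.38 FPKM with CORT, a log2 ratio of 0.91, above that of Arc. Fosb had 0.600 and 1.12 FPKM, a log2 ratio of 0.90, and like Egr2 it is in the table only through the CORT group. Junb had 13.2 and 19.3 FPKM, a log2 ratio of 0.55, and Jun had 35.0 and 35.5 FPKM, a log2 ratio of 0.02. Batf3, the 1 lowered factor, had 1.22 and 0.348 FPKM, and is in the table only through the vehicle group, so it too had to differ.

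Over all gene symbols, 1.92% were at least 1.5 times as high with CORT and 3.99% were lowered by as much. Of 34 other rapidly induced genes with a row, 4 were at least 1.5 times as high with CORT, 2 were lowered by as much and 28 lay between, with a median log2 ratio of 0.13. The 4 were Trib1, with 1.13 and 1.85 FPKM, Tiparp, with 3.88 and 6.34 FPKM, Nfil3, with 5.46 and 8.33 FPKM, and Dusp5, a phosphatase of ERK, with 3.97 and 6.03 FPKM. Dusp1, a phosphatase of MAP kinases that is also a known glucocorticoid target, had 7.14 and 10.4 FPKM, a log2 ratio of 0.55. Npas4, a transcription factor induced by neuronal calcium entry, was lower with CORT, at 1.06 FPKM with vehicle against 0.865 FPKM with CORT, a log2 ratio of -0.30. Homer1, a scaffold protein of the synapse, had log2 ratios of 0.25 and 0.35 in its rows. Bdnf, a neurotrophin induced by activity, had 6 rows with log2 ratios from -0.91 to 0.76, and its most abundant row had 3.87 FPKM with vehicle against 2.38 FPKM with CORT. The other lowered gene, Cyr61, had 0.962 and 0.540 FPKM, and is in the table only through the vehicle group. Of the 34 genes 22 were higher with CORT, and 54.2% of all gene symbols were.

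The factors and partners of the members lay closer to the middle of the table. Of 16 signal-responsive regulators with a row, 1 was at least 1.5 times as high and none was lowered by as much, beside 1.92% and 3.99% of all gene symbols. Their median log2 ratio was 0.12. Mkl1, a coactivator of serum response factor, was the 1 raised, at 15.9 and 24.1 FPKM in its most abundant row. Srf, which encodes serum response factor, had 17.9 and 18.5 FPKM, and Creb1, which encodes CREB, had 1.54 and 2.10 FPKM. Nab2, a co-repressor of Egr proteins that Egr factors themselves induce, had 8.01 and 8.56 FPKM, a log2 ratio of 0.10, and its relative Nab1 had 11.2 and 10.3 FPKM. The retinoid X receptors, with which Nr4a1 and Nr4a2 pair, had log2 ratios of 0.32 for Rxra, 0.25 for Rxrg and 0.07 for Rxrb. Of the 11 genes listed for Arc-binding proteins and AMPA receptor subunits, none passed 1.5-fold in either direction, and the median log2 ratio was 0.08. They included Camk2a, at 593 and 667 FPKM, and Sh3gl3, an endophilin, at 56.9 and 54.6 FPKM.

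Genes known to be induced by glucocorticoids in many tissues were set beside the members. They were listed with earlier results of these data known. The study names some of them, among them Per1, Sgk1 and Tsc22d3, as under corticosteroid control from this experiment. Their count is therefore not independent of these data. Of the 15 genes, 12 were at least 1.5 times as high with CORT and 1 was lowered by as much, beside 1.92% and 3.99% of all gene symbols. Their median log2 ratio was 0.90. Sgk1, a kinase, had 28.5 and 70.4 FPKM in its more abundant row and 4.47 and 4.60 FPKM in the other. Fkbp5, a chaperone of the glucocorticoid receptor, had 18.6 and 33.8 FPKM, a log2 ratio of 0.86. Per1, a clock gene, had a log2 ratio of 0.95, and Tsc22d3, also known as GILZ, had 0.93 in its more abundant row and 0.72 in the other. The metallothioneins Mt1 and Mt2A were lower with CORT, with log2 ratios of -1.57 and -0.51. For Arc, Nr4a1 and Egr1, 11 of the 15 targets had a higher log2 ratio, for Egr4 12, and for Egr3, Nr4a2 and Nr4a3 13. Only Pdk4 among the targets had a higher log2 ratio than Egr2, whose row is in the table only through the CORT group. With 1 FPKM added to both groups, Egr2 had a log2 ratio of 0.73 and the targets a median of 0.83. The receptors differed in sign, with log2 ratios of 0.32 for Nr3c2, the mineralocorticoid receptor, and -0.34 for the more abundant row of Nr3c1, the glucocorticoid receptor.

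**Figure D4:**
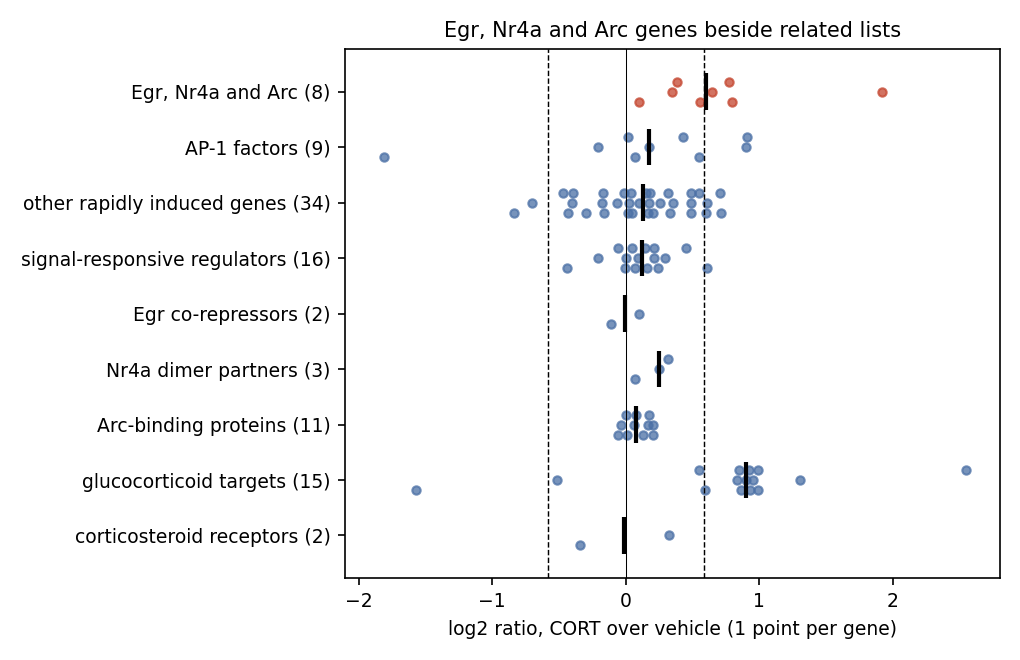
Log2 ratio of CORT over vehicle, 1 point per gene, for the 8 members with rows summed (red) and for related lists with each gene's most abundant row (blue); black bars are medians, dashed lines mark 1.5-fold and brackets give the number of genes. The members' median of 0.60 lies between the 0.18 of the AP-1 factors and the 0.90 of the glucocorticoid targets.

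Markers of cell types and neighbouring regions also differed between the groups. Their counts stand beside 1.92% of all gene symbols at least 1.5 times as high with CORT and 3.99% lowered by as much. In bulk tissue, fewer cells of a type and less RNA per cell cannot be told apart. Markers of hippocampal principal neurons were present, with Camk2a, Wfs1 at 106 and 114 FPKM and Prox1, of dentate granule cells, at 10.9 and 8.96 FPKM, and their summed FPKM was 1036 with vehicle and 1105 with CORT, with 1 of 9 at least 1.5 times as high. The 8 interneuron markers were all higher with CORT, 1 of them by at least 1.5-fold, with a median log2 ratio of 0.32 and a summed FPKM of 535 and 660. Markers of the thalamus and habenula were lower with CORT in 7 of 8 genes by at least 1.5-fold, with sums of 36.9 and 17.3 FPKM, and the other gene, Rora, was at least 1.5 times as high, at 0.559 and 0.914 FPKM. Rora passed 0.800 FPKM only with CORT, and Chrna3, Chrnb4 and Gpr151 among the lowered genes only with vehicle. Those of meningeal fibroblasts were lower by as much in 4 of 7 genes, with sums of 121 and 86.0 FPKM.

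Glial and vascular markers had median log2 ratios below 0. The median log2 ratio was -0.10 for 7 astrocyte markers, 2 of them lowered by at least 1.5-fold, with sums of 2568 and 2111 FPKM. Most of the difference in these sums lay in Gfap, at 970 and 517 FPKM. The 2 astrocyte markers higher with CORT were S100b, at 1066 and 1095 FPKM, and Slc1a2, at 159 and 175 FPKM. For 7 oligodendrocyte markers the median was -0.24, with 1 lowered by at least 1.5-fold and sums of 5198 and 4299 FPKM. For 8 microglial markers it was -0.28, with 1 at least 1.5 times as high and sums of 204 and 174 FPKM, and for 6 endothelial markers it was -0.33, with 1 lowered by as much and sums of 89.2 and 76.1 FPKM. Choroid plexus markers had a median of -0.05 over 7 genes, none past 1.5-fold, with sums of 6781 and 6762 FPKM. Striatal markers had a median of -0.01 over 7 genes, 2 of them at least 1.5 times as high, of which Drd2, at 0.598 and 1.12 FPKM, passed 0.800 FPKM only with CORT, and neocortical markers one of 0.27 over 6 genes, none past 1.5-fold. Their sums were 100.5 and 100.1 FPKM for striatum and 61.1 and 64.7 FPKM for neocortex. No marker with a row was at 0. The part of these shifts in the values of the Egr, Nr4a and Arc genes was not tested.

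**Figure D5:**
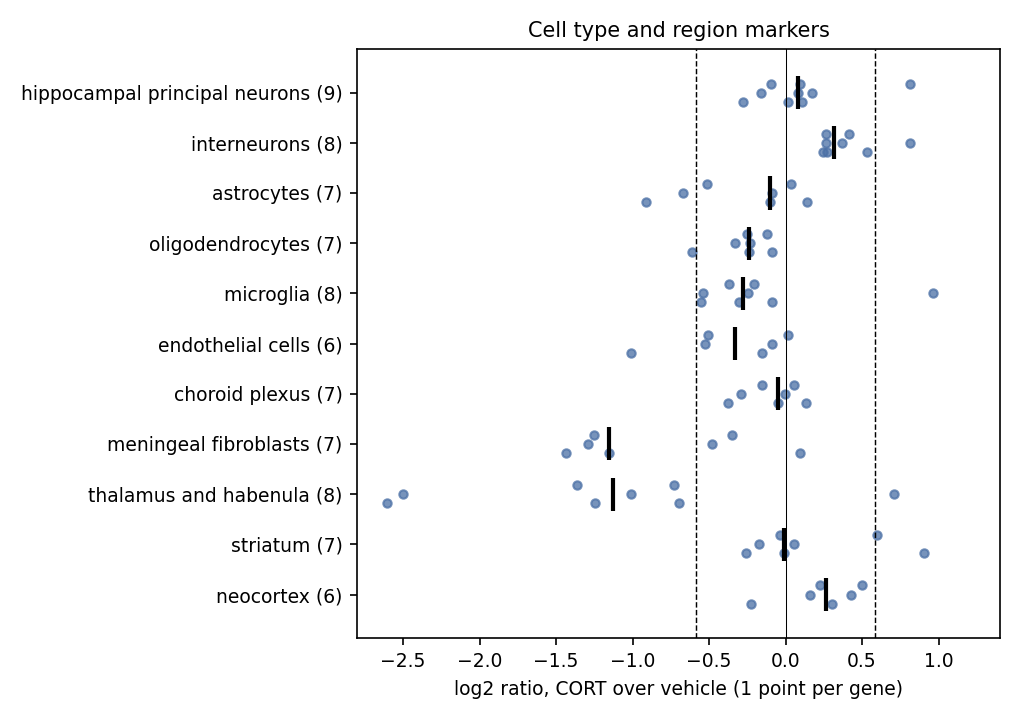
Log2 ratio of CORT over vehicle, 1 point per marker gene, for lists of cell types and regions; black bars are medians, dashed lines mark 1.5-fold and brackets give the number of genes. All interneuron markers lie to the right of 0, and 7 of 8 markers of the thalamus and habenula lie to the left of the lower dashed line.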

How the data were processed

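RNA from whole hippocampi of 4 vehicle and 4 CORT rats was sequenced from stranded total RNA libraries. By the submitters' processing notes and the study's methods, the authors aligned reads to rn6 with TopHat2 2.0.10 and deposited FPKM values per Ensembl transcript from Cuffdiff 2.2.0, with geometric normalization between libraries, corrections for multiply mapped reads, sequence bias and effective length, and a minimum alignment count of 10. The deposited FPKM table holds 1 value per group, read here as the authors' group value, and no column of per-sample values. Its remaining columns, the authors' own fold changes, test statistics, p-values, q-values and significance calls, were not used. The table used holds no read counts, and the depth that the study's methods give is stated for its other set of hippocampi, so no precision is given. Loci were written 1-based by adding 1 to the start. Log2 ratios, counts and medians were computed without a pseudocount in Python 3.11.15 with numpy 2.4.6 and pandas 2.3.3, and drawn with matplotlib 3.10.9. The counting was tested on simulated data. With 1 value per group no test was run here. Every row of the table has at least 0.800 FPKM in one group, as found from its values. Whether every transcript above that level has a row was not tested, so a gene without a row was not read as unexpressed. A symbol with several rows was represented in lists by its row with the highest mean FPKM. Named genes were all members, set genes of interest and, in each list, up to 4 genes from each end with at least 1 FPKM in one group; members of lists of 5 or fewer were all named. Cyr61 and Srf were named after their values were seen, and Rora, under 1 FPKM in both groups, was named outside this rule. The members and lists were chosen with earlier results of these data known. RefSeq promoter windows were taken from GRCr8, whose coordinates are not those of rn6. Alternatives were other pseudocounts, filters, fold thresholds, centring and summed rows.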

Additional observations from a re-analysis of the deposited data

How the results depend on the processing

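All 10 member rows kept a positive log2 ratio with pseudocounts of 1 and 0.1 FPKM, with centring on the median of all rows, with both filters of 1 FPKM (9 rows with the stricter one) and with the rows of a symbol summed. The number of member rows raised past the threshold was 5, 1 with 2-fold as the threshold and 8 with 25% above vehicle, since only Egr2 was over 2-fold. It was 4 with 1 FPKM or more required in both groups, and with the rows of a symbol summed 4 genes were raised. The log2 ratio moved by over 0.1 for 2 rows with 1 FPKM added, 1 row with 0.1 FPKM added and 2 rows with rows summed. With 2-fold as the threshold, 2 glucocorticoid targets were raised in place of 12, and 0 AP-1 factors in place of 2. The other rapidly induced genes then had 0 raised in place of 4 and 0 lowered in place of 2, and the signal-responsive regulators 0 raised in place of 1. With 1 FPKM added, 1 AP-1 factor and 1 other rapidly induced gene were raised, 0 such genes were lowered and 0 regulators were raised. With centring, 3 other rapidly induced genes were raised in place of 4. Glucocorticoid targets raised were 11 in place of 12, both with centring and with 1 FPKM added. With rows summed, 1 rapidly induced gene was lowered, 0 regulators were raised, and the median of the 2 corticosteroid receptors turned from -0.0098 to 0.0203. The causes were not tested. Leaving out each rat was not run because the table used has no value per rat. No paired analysis was possible because each group has 1 deposited value. The table used holds no read counts, so the reads behind the low vehicle value of Egr2 were not assessed.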
